A study of Canis lupus familiaris with 15 samples.

Results

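Samples of 1 dog, Rosco, were compared: 2 samples labelled as the original drug-resistant lymphoma and 3 fine needle aspirates taken at relapse. These are 5 of the 15 samples of a canine lymphoma series. The original samples were chosen because CA6, a carbonic anhydrase secreted into saliva, was high in them while MS4A1, the gene of the B cell surface protein CD20, was near background. The relapse aspirates were chosen as B-cell-rich samples of the same dog, though they were not its only ones. Because measured values chose the samples, every difference between them is given as a description without a test.

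The series measured RNA of 5 dogs on Agilent arrays with a single dye, each sample on its own array. Original sample 1 was a biopsy and original sample 2 a fine needle aspirate, and the labels call both an original drug-resistant tumour of the tissue lymphoma. The label of original sample 2 calls it the second such tumour. Whether both came from the same tumour, and the order of original sample 2 relative to the relapse aspirates, were not given. The 3 relapse aspirates were taken after metformin, a diabetes drug, and after relapse, although their titles say no remission. Rosco also gave an aspirate after failed chemotherapy and before metformin, an aspirate in remission after metformin, a tumour sample taken after death and a skin biopsy. The comparison samples from other dogs were the biopsies of original drug-resistant tumours of MalcolmX, Jake and Dog Y, a tumour aspirate of MalcolmX after metformin, the skin of MalcolmX, and a biopsy of a drug-sensitive tumour of Thai. Breed, age, tumour site and B or T cell type of the lymphomas were not given in the sources used here, and all 5 samples compared came from the same animal. Differences between arrays of a group therefore measure the spread within 1 dog.

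Salivary glands are built of secretory units, whose serous cells release watery fluid with enzymes and antimicrobial proteins and whose mucous cells release mucins and trefoil peptides. Ducts lined by epithelium modify the fluid by moving ions across it, and duct cells of many mammals also make tissue kallikrein (KLK1). B cell lymphomas usually carry CD20, CD40 and much class II antigen presentation machinery, and they divide rapidly.

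A level is given as the log2 signal minus that of the array's 75th percentile, so 0 is the level of a bright probe and values from about −5.5 downward lie near the lowest signals that were well above background (−6.86 to −5.50 on the 15 arrays). The 75th percentile of the raw processed signal ran from 367 to 1241, and 66.7% to 75.9% of the probes of an array were well above background. Original sample 1 was read on scan day 1, and original sample 2 and the relapse aspirates on scan day 2, with original sample 2 on the same slide (slide 4) as relapse aspirates 2 and 3. Only 1354 of 36471 targets carry a gene symbol here, so each gene list below is covered in part.

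The gland markers were at high levels in the original samples and the B cell marker was not. CA6 had levels of 8.59 and 8.99 in original samples 1 and 2, and of −5.19, −5.90 and −6.62 in relapse aspirates 1, 2 and 3. The groups did not overlap and the mean difference was 14.69 on the log2 scale (8.79 ± 0.28, SD, n = 2, against −5.90 ± 0.72, SD, n = 3). The highest level of CA6 on any of the other 13 arrays was 1.45, in the skin of Rosco. KLK1, the tissue kallikrein that releases kinins, was at 7.29 and 7.22 in the original samples and at −1.30, −0.82 and −1.0 in the relapse aspirates. This difference of 8.30 is a 314-fold higher signal, and the highest level on any other array was 0.61, in the remission aspirate. SLPI, a protease inhibitor of mucosal secretions, was at 3.87 and 3.79 against −4.08, −3.56 and −4.19. Its level in the skin of Rosco, 2.32, came closest to the original samples.

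MS4A1 gave the opposite picture. It was at −7.16 and −6.73 in the original samples, not well above background on either array, and at 2.18, 2.33 and 1.78 in the relapse aspirates. The signal of the relapse aspirates was at least 218-fold higher. All 11 other tumour arrays were well above background for MS4A1, with a lowest level of 0.38 (remission aspirate) and a highest of 3.53 (Thai biopsy). The tumour of Rosco taken after death, at 2.04, lay within the range of the relapse aspirates. The skin of MalcolmX was at 0.84 and the skin of Rosco at −8.04. The tissue label lymphoma of the original samples thus stands beside a defining B cell marker near background, and the labels do not name a gland. In bulk RNA, fewer cells of a type and less RNA per cell cannot be told apart.

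**Figure D1:**
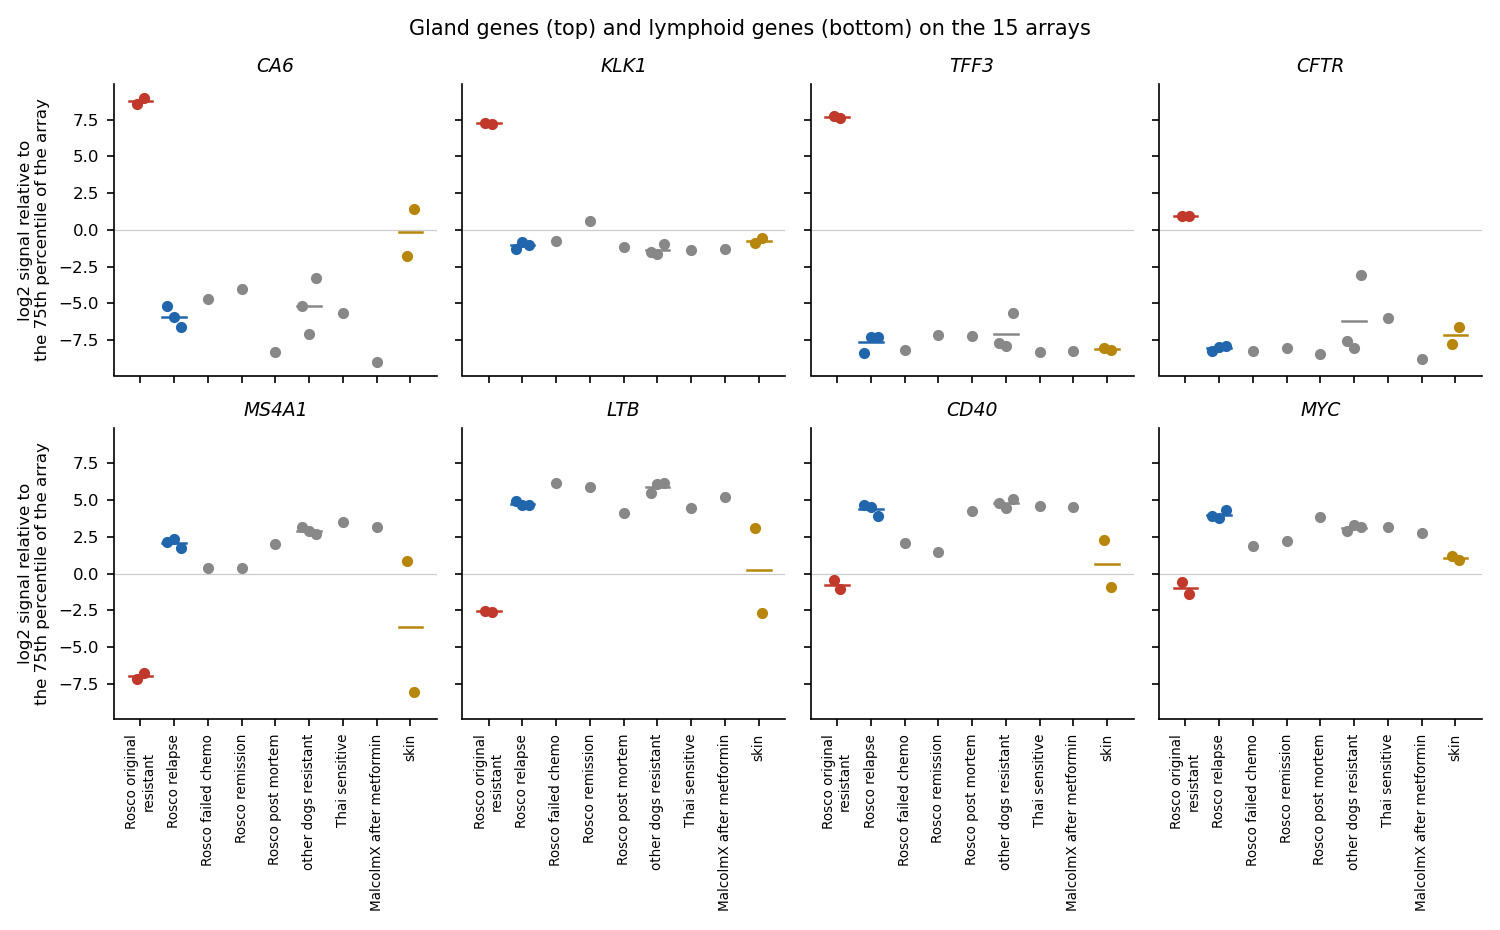
Levels of 4 gland genes (top row) and 4 lymphoid genes (bottom row) on the 15 arrays, as log2 signal relative to the 75th percentile of each array; each point is 1 array and each horizontal line the mean of a group with more than 1 array. The 2 original resistant samples of Rosco (red) lie above all other arrays for CA6, KLK1, TFF3 and CFTR, and below all tumour arrays for MS4A1, LTB, CD40 and MYC.

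A target was counted as higher or lower in the original samples when the groups did not overlap, their means differed by at least 2 on the log2 scale (4-fold), and the target was well above background on all arrays of the brighter group. Of 25631 targets well above background on all arrays of at least 1 group, 3676 were counted as higher (14.3%) and 2165 as lower (8.45%). Among the 1081 named genes that passed the same filter, 195 were higher (18.0%) and 123 lower (11.4%). The list counts below are to be read beside these shares, and a count near them describes no trait of a list. List counts are given over all measured genes, and the shares over those that passed the filter. The groups were chosen on such differences, so these shares describe the distance between the samples and nothing more. Counts and medians of the serous and B cell lists include CA6 and MS4A1, whose values chose the samples. Those of the duct and mucosal defence lists include the markers KLK1 and SLPI. The median difference of all targets that passed was −0.22. Large differences were more frequent upward: 67 targets were higher by at least 10 and 0 were lower by that much, and 502 against 56 differed by at least 6. Of the higher targets, 1190 were not well above background on any relapse array, and 459 of the lower targets were not so on either original array. On slide 4 alone, with original sample 2 against relapse aspirates 2 and 3, 4060 targets were higher and 2148 lower, and the difference was 15.25 for CA6 and −8.79 for MS4A1. Just inside the minimum of 2 lay LRTOMT (2.033) and ATM (−2.023), and near it on the outer side lay TNC (1.998) and CTLA4 (−1.999).

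**Figure D2:**
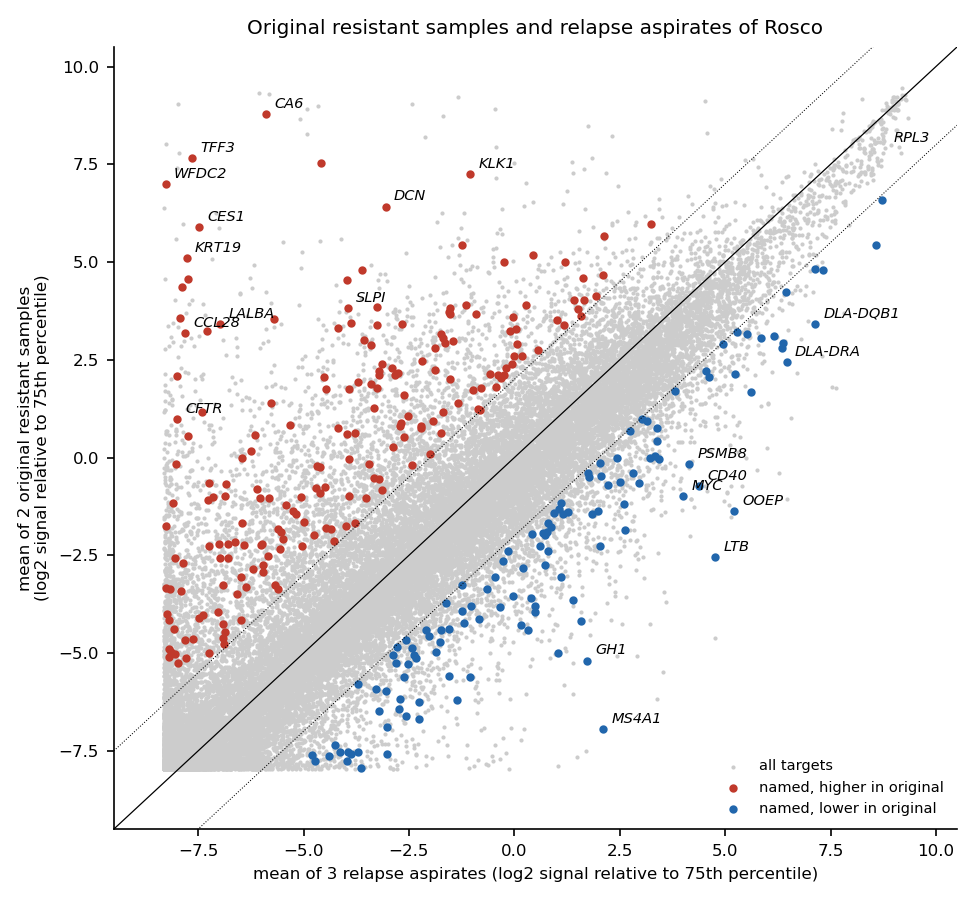
Mean level in the 2 original resistant samples (y axis) against the mean level in the 3 relapse aspirates (x axis), both as log2 signal relative to the 75th percentile, for all 36471 targets (grey), with the 195 named genes counted as higher in red and the 123 counted as lower in blue. The solid line marks equal levels and the dotted lines a difference of 2; TFF3, WFDC2 and CA6 lie farthest above the line and MS4A1 and LTB farthest below it among the named genes.

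Among the secreted proteins of serous and mucous gland cells, the trefoil peptide TFF3 stood out. TFF3, which protects mucosal surfaces together with mucins, was at 7.74 and 7.59 in the original samples and at −8.34, −7.27 and −7.31 in the relapse aspirates. It was not well above background on any relapse array, and the original samples were at least 13100-fold brighter. Of the other 13 arrays only the Dog Y biopsy was well above background for TFF3, at −5.67. All 3 other measured members of the mucous cell list were well above background in both groups. TFF2, a second trefoil peptide, was higher by 4.14, and ST6GALNAC1, an enzyme that puts sialic acid on mucin sugars, by 2.95. Their probes differed widely, from 4.14 to 9.32 for TFF2 and from 2.95 to 9.65 for ST6GALNAC1. TFF1, the trefoil peptide best known from the stomach, differed by −0.16 with overlapping groups.

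For the serous cell list only 3 of 30 listed genes were measured under a symbol. CA6, which had been used to choose the samples, and LTF were higher. LTF, the iron-binding antimicrobial protein lactoferrin, was at 3.71 and 3.94 in the original samples and at −1.58, −1.38 and −1.63 in the relapse aspirates, with its 3 probes from 3.06 to 6.96. LTF is also a neutrophil granule protein; of the 8 measured neutrophil genes LTF and ALOX5 (2.53) were higher and MMP9 (−2.64, with 4 probes from −2.95 to 0.36) was lower. The antimicrobial peptide CAMP, another granule protein, differed by −1.38. ODAM, a secreted protein of enamel-forming and some gland cells, was at −4.90 and −5.40 against levels near −8 and was above background on 1 original array only.

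Mucosal defence proteins were mostly higher as well. WFDC2, a whey acidic protein family member secreted by many glandular epithelia, was at 7.04 and 6.95 in the original samples and at −8.28, −8.28 and −8.25 in the relapse aspirates. That is a signal at least 8220-fold higher, and the highest of the other 13 arrays was −1.77 in the skin of MalcolmX. Of the 9 measured genes of this list 6 were higher and 0 lower, with a median difference of 3.24. The protease inhibitors SERPINA1 (6.08) and SPINT2 (3.24) and the chitinase-like protein CHI3L1 (3.35) were among them. CHI3L1 was dim, at −4.65 and −3.41 in the original samples.

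Several further secreted proteins were among the 15 named genes with the largest differences. AZGP1, a zinc-binding glycoprotein of secretions, was at 4.40 and 4.30 against −8.05, −7.82 and −7.80, at least 1310-fold higher. CANF2, a lipocalin known as a dog allergen of saliva and dander, was at 3.52 and 3.61 against −8.29, −8.28 and −7.24. LOC481674, listed under the synonym LCN, differed by 12.12 and was at 3.85 in the skin of Rosco. CCL28, a chemokine that mucosal and glandular epithelia use to attract antibody-secreting cells, was at 3.53 and 2.86 in the original samples and at −8.23, −7.01 and −8.24 in the relapse aspirates. No other array exceeded −4.51 for CCL28. LOC478001, a gene without a role named here, differed by 12.31.

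LALBA, the milk protein alpha-lactalbumin, was at 3.62 and 3.21 in the original samples and at −7.30, −6.53 and −7.10 in the relapse aspirates. CSN2, beta-casein, was dim in the original samples, at −4.77 and −4.55, and at −7.67 or below in the relapse aspirates. Both named members of the mammary gland list were thus higher, LALBA at least 689-fold and CSN2 at least 2.55-fold. The other 8 listed mammary genes were not analysed here.

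The duct and ion transport list had 10 measured genes, of which 7 were higher and 0 lower, with a median difference of 6.82. CFTR, the chloride channel of duct epithelium, was at 0.98 on both original arrays and at −8.20, −7.96 and −7.86 in the relapse aspirates. KCNMA1, a potassium channel, was at 0.26 and 0.86 against −7.58, −7.89 and −7.78, and its 2 probes differed by 5.48 and 8.31. FXYD2, a regulator of the sodium pump, was higher by 7.52. EGF, the growth factor stored in salivary ducts of rodents, was at −1.10 and −1.21 against −8.26, −8.08 and −7.97, which is at least 29.1-fold higher. Among the other 10 arrays outside both groups CFTR reached −3.08 at most, in the Dog Y biopsy. The list's median level was 0.62 and 0.92 on the original arrays and between −4.61 and −4.07 on the relapse arrays.

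All 9 measured epithelial junction and keratin genes were higher in the original samples, with differences of 3.61 to 12.87 and a median of 4.81. KRT19, a keratin of simple and ductal epithelium, was at 5.02 and 5.19 against −8.19, −7.07 and −8.03. No tumour array outside the original samples was well above background for KRT19, while the skin of Rosco was at 4.62. Cingulin (CGN), a tight junction protein, was higher by 8.52, E-cadherin (CDH1), the adhesion protein of epithelia, by 5.28, TJP1 by 5.26 and occludin (OCLN) by 4.81. For CGN the 2 probes gave 4.82 and 8.52, and the 3 of CDH1 ran from 3.41 to 5.76. The list's median level was 2.88 and 2.70 in the original samples and −3.98, −3.71 and −4.24 in the relapse aspirates, and the share of epithelial RNA in the lower lymphoid signals described below was not tested.

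Genes of the general secretory pathway were at similar levels in both groups. Of 14 measured genes for protein entry into and folding in the endoplasmic reticulum, 1 was higher, SELENOS (2.49), and the median difference was 0.25. SEC61A1, a pore subunit of the translocation channel, was at 6.81 and 6.28 against 5.40, 5.26 and 5.08. SEC61B (−0.50) and SEC61G (−0.63), its smaller partners, were slightly dimmer in the original samples. The basal and myoepithelial list had only KRT14 (1.89) and OXTR (−0.37), and neither was counted.

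Lists for other glands and organs were mostly near background or near the relapse level. None of 9 measured pancreas genes, 6 thyroid genes, 2 airway genes and 6 stomach and intestine genes was higher. The pancreatic islet hormone SST differed by 1.12 without being above background, and the pancreatic colipase gene CLPS by −1.48. The thyroid genes DIO1 (2.01), DIO2 (0.79, with a second probe at 3.18) and TSHR (0.44) were not above background on either original array. KLK2, a kallikrein of the prostate, was at −8.07 and −7.85. Of 3 nerve and glia genes and of the sebaceous gland list, which held only PPARG (1.37), none was counted, and the sweat gland list had no measured gene. UMOD, a kidney protein, was above background on original sample 2 only (−2.58, against −6.47 in sample 1), and CUBN, an uptake receptor of kidney tubules, was lower by 2.44. In the liver list SERPINA1 was higher and CYP3A12, a drug-metabolising enzyme, lower (−2.67).

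Skin genes split. Of the epidermis list KRT15 (10.10), DSG3 (6.53) and PKP1 (3.05) were higher in the original samples. KRT15 was at 2.12 and 2.07 there, at about −8 in the relapse aspirates, and at 4.92 and 8.12 in the skin of MalcolmX and Rosco. The epidermal differentiation genes KRTDAP (−1.09) and KRT2 (−1.16) were not counted, and at −4.33 and −2.95 for KRTDAP the original samples were far from the skin levels of 5.70 and 8.22. CES1, a carboxylesterase, was at 6.03 and 5.75 in the original samples, at 5.26 and 7.35 in skin, and not well above background on any relapse array. Of the 9 epidermis genes 3 were higher and the median difference was −0.30.

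Supporting tissue was partly higher. Decorin (DCN), a matrix proteoglycan of fibroblasts, was at 6.48 and 6.37 against −3.15, −1.89 and −4.12. In the fibroblast and matrix list 5 of 12 genes were higher and 0 lower, with a median difference of 0.84. TIMP3 (4.23), an inhibitor of matrix proteases, and biglycan (BGN, 3.40) were among them. COL1A2, a chain of type I collagen, was higher by 2.19, with its 6 probes between −0.10 and 2.40. The fatty acid transporter CD36 was higher by 8.44, but the fat hormones LEP (0.45) and ADIPOQ (0.11) were not counted. Of 7 muscle genes 3 were higher: CA3 (6.60), MYL2 (6.18) and MYH2 (2.78). The 3 probes of CA3 ran from 1.38 to 6.60, the 5 of MYL2 from −0.62 to 6.18 and those of MYH2 from 0.06 to 2.78. With the median of probes 0 of the 7 muscle genes were counted, while desmin (DES) was above background in neither group. In the endothelial list KDR, the VEGF receptor, was higher (2.82) and SELP, the P-selectin of vessels and platelets, lower (−4.44). MAOB, an amine-degrading enzyme, and SLC1A1, a glutamate transporter, were higher by 10.51 and 9.25, and the 2 probes of MAOB gave 3.60 and 10.51.

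The lymphoid genes that were dim in the original samples began with the B cell surface. Both measured members of the B cell identity list, MS4A1 and CD40, were lower, and MS4A1 had been used to choose the samples. CD40, the receptor through which T cells help B cells, was at −0.43 and −1.04 in the original samples and at 4.64, 4.56 and 3.95 in the relapse aspirates. LTB, the lymphotoxin subunit that organises lymphoid tissue, was at −2.53 and −2.57 against 4.94, 4.70 and 4.67. That is a 160-fold lower signal. The other 34 genes of the B cell list, among them most antigen receptor components, were not analysed here. TLR10, a receptor found mainly on B cells, was lower by 6.03, from 1.01, 1.04 and 1.03 to −4.77 and −5.22.

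Other genes with the largest deficits have roles outside B cells. GH1, growth hormone, was at −5.57 and −4.82 against 1.89, 1.62 and 1.70. In the RefSeq gene table GH1 lies next to CD79B, which encodes a chain of the B cell receptor. Any part of that position in the GH1 signal was not tested. OOEP, an oocyte protein gene, was at −1.15 and −1.58 against 5.11, 5.33 and 5.19. Both were well above background on all 15 arrays. OOEP was at −1.67 in the remission aspirate and at −3.62 in the skin of Rosco, below both original samples. GH1 was at −5.22 in the skin of Rosco, between the original samples. CASP8, the initiator caspase of death receptors, was lower by 5.74 and the serotonin receptor gene HTR1D by 4.55. HTR1D was above background on neither original array, and its relapse signal was at least 6.31-fold higher. CD1A8, a lipid antigen presenting molecule, was lower by 4.84. Other tumour arrays varied for CD1A8, from −7.03 in the MalcolmX biopsy and −6.34 in the aspirate after failed chemotherapy to −0.90 in the Jake biopsy.

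MYC, the growth-promoting transcription factor, was the largest deficit among lymphoma drivers. It was at −0.58 and −1.40 in the original samples and at 3.90, 3.77 and 4.36 in the relapse aspirates, a difference of −5.0. The skin of Rosco, at 0.92, had the lowest level of the other arrays. Of the 9 measured germinal centre and lymphoma driver genes 2 were lower, MYC and the apoptosis inhibitor BIRC3 (−2.91), and the median difference was −0.36. BCL6, the germinal centre repressor, was above background on original sample 2 only (−5.02) and on no relapse array. MME, the gene of CD10, was at −0.77 and −0.82 against −2.26, −2.73 and −3.20 and fell short of the minimum with a difference of 1.93.

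T cell and natural killer cell genes were lower in 6 of 16 cases and higher in 0, with a median difference of −2.05. Of the 16 genes 13 passed the filter. FASLG (−3.87), IL2RA (−3.70), KLRD1 (−3.48), CD28 (−3.39) and FOXP3 (−3.03) were not above background on either original array. All 5 were dim in the relapse aspirates as well, at −2.54 or below. With normexp background correction 0 of the 16 genes were counted, the median was −0.48, and these 5 lay between −1.04 and −0.46. Among leukocyte genes in general, CD52, a surface glycoprotein of lymphocytes, was at −5.29 and −5.96 against −0.70, −0.56 and −1.89, whereas the adhesion receptor CD44 differed by 0.36. CD52 was also dim in the Jake biopsy (−5.78) and the MalcolmX aspirate after metformin (−6.43). The other tumour arrays outside both groups lay between −1.81 and 5.66 for CD52. The only measured plasma cell gene, CD38, differed by −1.22.

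Myeloid genes were less displaced. Of 13 monocyte, macrophage and dendritic cell genes 2 were lower and 0 higher, with a median difference of −1.05. Among all named genes that passed the filter 11.4% were lower and 18.0% higher. CYBB, a subunit of the phagocyte NADPH oxidase, was lower by 2.96. TLR4, the endotoxin receptor, was at 2.26 and 2.08 in the original samples, 1.82 above the relapse mean, and FCGR1A was 1.66 above it. TYROBP, the myeloid signalling adaptor, was at 1.74 and 1.38 against 3.19, 3.27 and 2.94.

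Antigen presentation genes were lower but remained well above background. Of 16 measured genes 10 were lower and 0 higher, and the median difference was −3.18. DLA-DRA, the alpha chain of the class II molecule DR, was at 2.59 and 2.30 in the original samples and at 6.53, 6.60 and 6.25 in the relapse aspirates. DLA-DQB1, the beta chain of the class II molecule DQ, was at 3.54 and 3.29 against 7.22, 7.03 and 7.13. Class II genes are closely related, so their probes may share signal. DLA-DOB, a chain of the class II molecule DO, was lower by 5.05, and DLA-DMB by 3.79. PSMB8, a subunit of the immunoproteasome, was at −0.04 and −0.29 against 4.11, 4.17 and 4.16. All 16 genes were well above background on both original arrays.

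Of 8 measured interferon response genes 5 were lower and 0 higher, with a median difference of −2.18. MX1, an antiviral GTPase, was at 1.71 and 1.66 against 5.49, 5.59 and 5.74. TRIM34 (−4.06), OASL (−2.68), CXCL10 (−2.25) and OAS2 (−2.10) were the others. In the NF-kB and TNF family list 8 of 12 genes were lower and 0 higher, with LTB, TLR10, CD40 and TLR1 (−4.46) at its head. The median of that list was −3.35. Chemokines and their receptors went both ways: 5 of 28 were higher and 7 lower. Of these 28 genes 22 passed the filter. Among all named genes that passed it 18.0% were higher and 11.4% lower, so the higher count is near that share. Beside CCL28, CCL13 (3.1) and CXCL12 (2.64) were higher, and CCL20 (−4.74) and the receptor CXCR3 (−2.84) lower.

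Cell division genes were lower in 8 of 9 cases. BIRC5 (survivin), which acts at the chromosomes and the spindle, was at −0.51 and −0.82 in the original samples and at 2.89, 2.95 and 3.00 in the relapse aspirates. UBE2S, the enzyme that extends ubiquitin chains for the anaphase promoting complex, was at −0.06 and 0.00 against 3.54, 3.27 and 3.51. The difference of −3.47 is an 11.1-fold lower signal. BRCA1 (−3.26), which acts in the repair of DNA breaks, and the phosphatase CDC25A (−3.10) were lower as well. CDC25A and BRCA1 were above background on neither original array. TYMS, the thymidylate synthase, was lower by only 2.05, at 3.09 and 2.71 against 4.83, 5.05 and 4.99. The median of the list was −3.10.

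Genes of drug transport and detoxification did not move together. Of 17 measured genes 3 were higher and 2 lower, and the median difference was 0.35. Of the 17 genes 15 passed the filter. Both counts are near the shares of all named genes that passed it, 18.0% higher and 11.4% lower. ALDH1A1, an aldehyde dehydrogenase, was higher by 5.03, the export pump ABCC5 by 3.60 and catalase (CAT) by 2.57. The 3 probes of ABCC5 ran from 1.49 to 3.60. CYP3A12 and CYP3A26 (−3.79), a pair of closely related cytochromes whose probes may share signal, were lower. ABCB1, the pump P-glycoprotein, was at −1.86 and −2.73 against −3.39, −3.15 and −4.73, and its 2 probes gave 1.46 and −1.20, so that no direction is given. ABCC1 was at −1.87 and −1.11 against 0.36, 0.29 and 0.83, a difference of −1.98 that fell short of the minimum. None of 11 ribosomal protein genes was counted. Their differences lay between −1.19 and −0.26, with a median of −0.71, against −0.22 for all targets.

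Counts of lists with dim genes depended on the background correction. With normexp 122 of the 195 higher named genes and 69 of the 123 lower ones were counted on the same side. Interferon response genes were then lower in 2 of 8 cases, chemokines and receptors higher in 2 and lower in 1 of 28, fibroblast and matrix genes higher in 2 of 12 and epidermis genes higher in 1 of 9. CSN2 (0.37), CUBN (−0.94), KDR (1.97), ALOX5 (1.17), MMP9 (−0.80) and CYP3A26 (−0.65) were not counted under it. HTR1D (−0.98), CD1A8 (−1.88), BRCA1 (−0.83), CDC25A (−0.38) and TRIM34 (−1.21) were not either. Among the higher genes DSG3 (1.93), OCLN (1.53) and CHI3L1 (0.57) were not counted, and neither were other genes named above. The lists of duct transport, of epithelial junctions and of antigen presentation had 7, 7 and 10 counted genes. Median centring left 3 of 12 fibroblast and matrix genes higher. Without relapse aspirate 3 the neutrophil list had 1 gene higher and 1 lower. Without relapse aspirate 1 the lymphoma driver list had 1 gene higher beside 2 lower, and without relapse aspirate 2 the monocyte list likewise.

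**Figure D3:**
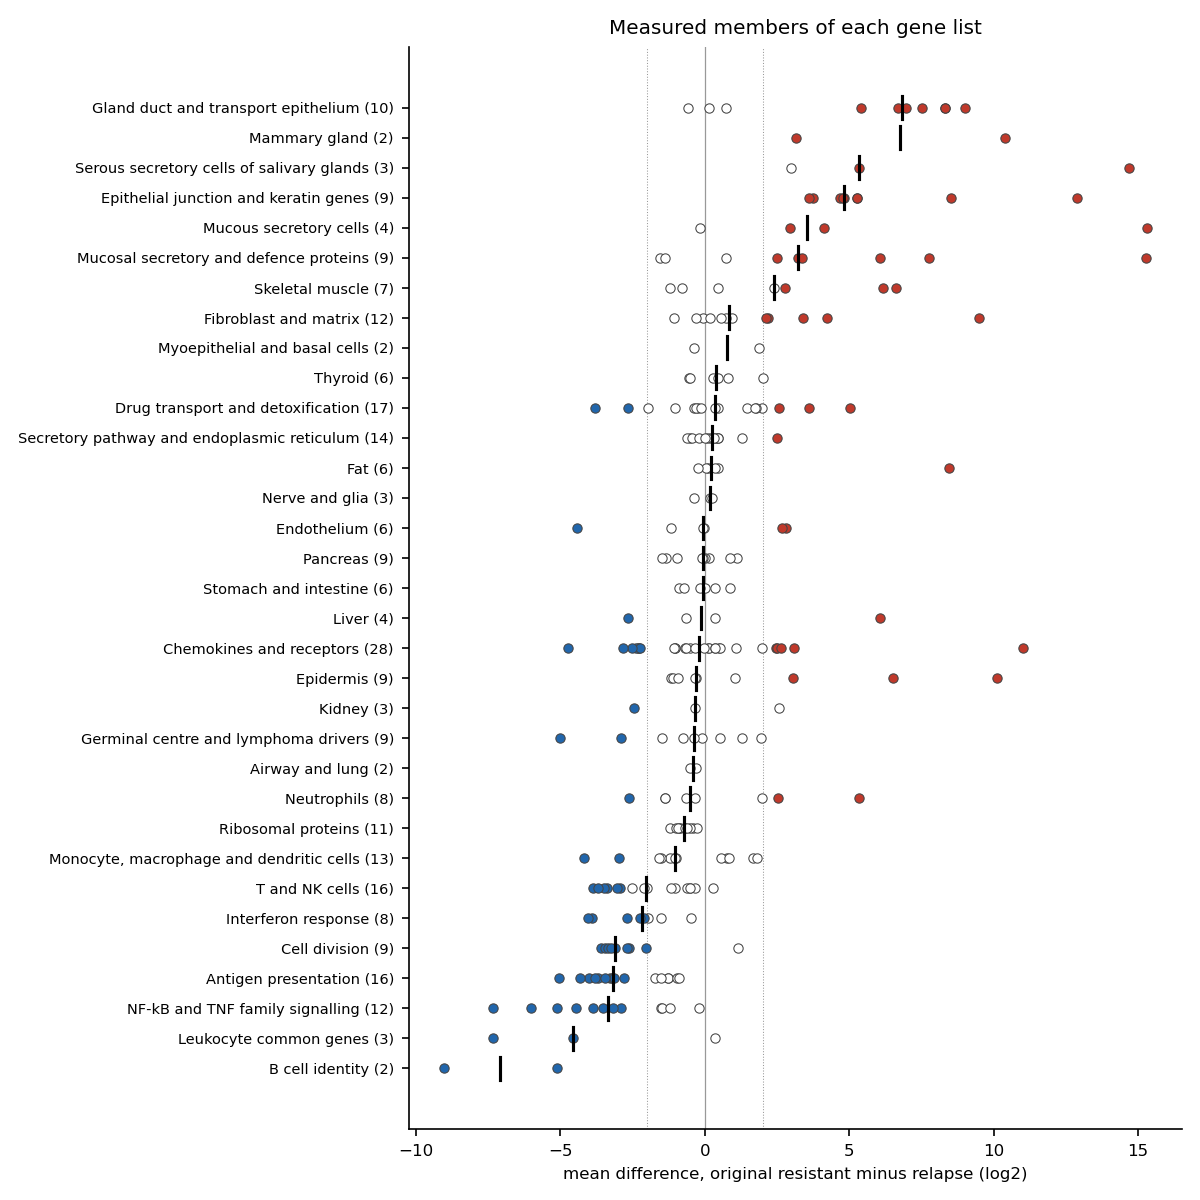
Difference between the mean of the 2 original resistant samples and the mean of the 3 relapse aspirates (log2) for each measured gene (circle) of the lists with at least 2 measured genes, with the number measured in parentheses and the list median as a black bar. Red circles were counted as higher, blue as lower and white as neither. Gland and epithelial lists lie at the top, with medians of 3.24 to 6.82. B cell, leukocyte common, NF-kB and antigen presentation lists lie at the bottom, with medians of −7.08, −4.57, −3.35 and −3.18. The B cell list holds MS4A1 and the serous list CA6, whose values chose the samples.

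Across all 15 arrays, 32 of 1354 named genes were well above background on both original arrays and at least 2 higher there than on each of the other 13. TFF3 had the widest gap, 13.26, followed by WFDC2 (8.71), LALBA (7.77), CCL28 (7.37), CA6 (7.14) and KLK1 (6.61). With no minimum gap and no background limit, 87 named genes lay below all 13 other arrays on both original arrays. That count cannot be set against the 32, and neither count covers targets without a gene symbol. MYC and CASP8 belong to these, while MS4A1 and TLR10 do not, because the skin of Rosco was lower still.

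The biopsy and the aspirate were close to each other although they differ in sampling, slide and scan day. Of 23886 targets that passed the background limit in both samples, 122 differed by 2 or more (0.511%), and the SD of the difference was 0.57. Between relapse aspirates these shares were 0.134% to 0.584%, with SDs of 0.33 to 0.57. Between an original sample and a relapse aspirate 17.0% to 18.5% of targets differed by that much. Across all targets, which are not independent, Pearson's r was 0.984 between the original samples, 0.984 to 0.992 between relapse aspirates and 0.878 to 0.889 between the groups.

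LOC476445 was at −3.36 in the biopsy and −0.43 in the aspirate, the widest gap among named genes well above background on both arrays. MSX2, a homeobox factor, was at −2.71 and −0.39, the cytokine IL10 at −3.61 and −1.36, and the lymphocyte receptor SLAMF1 at −5.05 and −3.01. The odorant receptor genes OR52N2G and OR2T11 were also brighter in the aspirate. In the biopsy SPCS2, a signal peptidase subunit, was brighter (2.75 against 1.54), as was VCAM1, a vessel adhesion molecule (−0.51 against −1.69). ARSK, CREM, TPMT and SRD5A2 were the others, by 0.92 to 1.03. With 1 sample of each kind these gaps have no replicate check. The biopsy was read on scan day 1 and the aspirate on scan day 2. Over the series OR2T11 ran from −4.06 to −2.33 on day 1 and from −1.87 to 0.03 on day 2. IL10 ran from −3.61 to −2.39 and from −2.34 to −1.06. The other genes of this paragraph overlapped between the days. Sampling and scan day cannot be told apart between these 2 arrays.

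**Figure D4:**
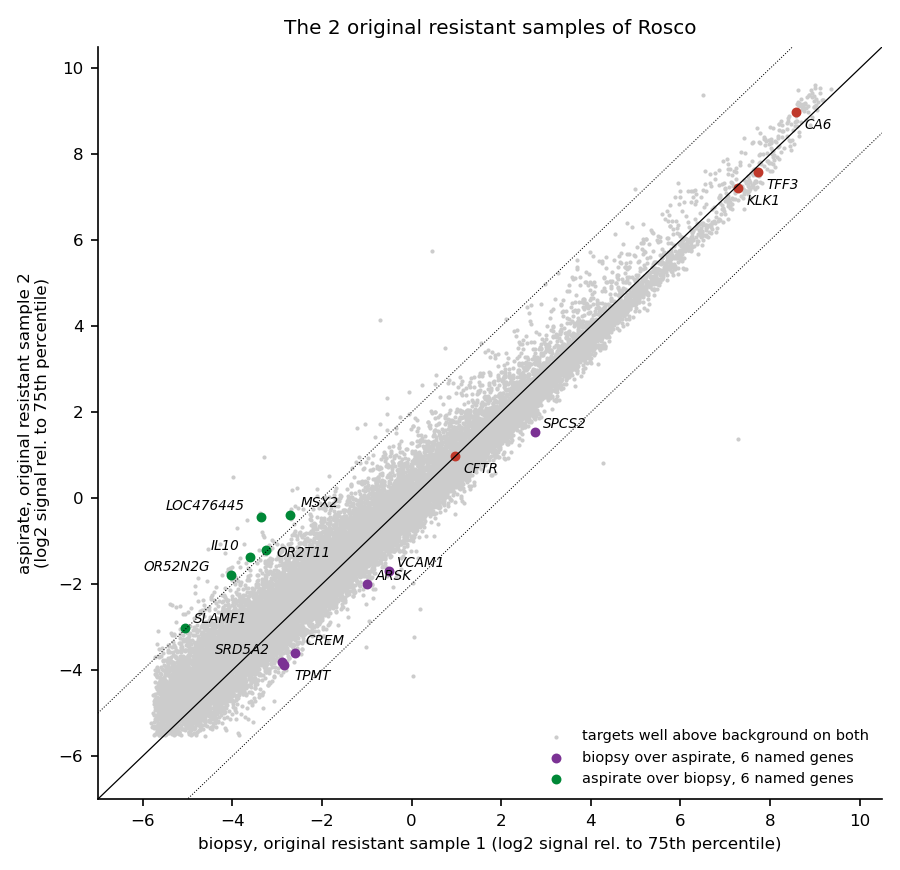
Levels in the biopsy (x axis) and the aspirate (y axis) of Rosco, each labelled an original drug-resistant tumour, for the 23886 targets above (grey). Levels are log2 signal relative to the 75th percentile, and whether both came from the same tumour was not given. The solid line marks equal levels and the dotted lines a difference of 2; CA6, TFF3, KLK1 and CFTR (red) lie on the line, the 6 named genes brightest in the aspirate (green) above it and the 6 brightest in the biopsy (purple) below it.

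Against biopsies of the original drug-resistant tumours of MalcolmX, Jake and Dog Y, the original samples of Rosco showed a similar number of differences. Of 24896 targets 3361 were higher (13.5%) and 1787 lower (7.18%). This comparison uses the same 2 original arrays as the one with the relapse aspirates, so the values are set side by side only. CA6 was higher by 14.69 than in the relapse aspirates and by 13.98 than in the biopsies of the other dogs, and KLK1 by 8.30 and 8.61. MS4A1 was lower by 9.04 and by 9.87, LTB by 7.32 and 8.48, and MYC by 5.0 and 4.13. Counted in both comparisons were 160 of the 195 higher named genes and 91 of the 123 lower ones. CYP3A12 had a difference of −2.67 against relapse and of 1.25 against the other dogs, and FOXP3 −3.03 and −0.35. FBN1 and COL1A2, matrix genes, were higher than in relapse (2.12 and 2.19) and at the level of the other dogs' biopsies (−0.31 and −0.02).

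Biopsies of the other 3 dogs against the 2 skin samples form a comparison on arrays that were not used to choose the 5 samples. MalcolmX gave a sample to each side, and the test treated these as independent. It was tested with limma over 24384 targets, with Benjamini-Hochberg adjustment and a threshold of 0.05. In it 1497 targets were higher in the tumours (6.14%) and 1621 lower (6.65%), and among 1068 named genes 83 were higher (7.77%) and 122 lower (11.4%). Of the 2165 targets lower in the original samples of Rosco, 827 (38.2%) were higher in the tumours of the other dogs than in skin and 8 were lower (0.37%). A further 169 could not be tested because they were dim. Of the 3676 targets higher in the original samples, 1015 (27.6%) were lower in the tumours than in skin and 11 were higher (0.299%), with 615 not tested. Among the 123 lower named genes 50 were higher in the tumours and 0 lower (86 and 0 at an unadjusted p under 0.05). Among the 195 higher named genes 73 were lower in the tumours and 0 higher (111 and 2 at an unadjusted p under 0.05).

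The counts of this test rest on few arrays and on the background correction. With normexp 20 of the lower and 86 of the higher targets of Rosco were called on the opposite side of skin, and 0 of the lower and 13 of the higher named genes. Without the Jake biopsy limma called 0 targets (6756 at an unadjusted p under 0.05), and without the Dog Y biopsy 66 of the lower and 333 of the higher targets of Rosco remained on the same side. Without the MalcolmX biopsy these numbers were 206 and 599, without the skin of Rosco 206 and 537, and without the skin of MalcolmX 823 and 1182. With slide as a block they were 613 and 897, and within slide 1, which holds the Jake and Dog Y biopsies and the skin of MalcolmX, 50 and 472. The skin of MalcolmX had lymphoid signal, with MS4A1 at 0.84 and LTB at 3.11 against −8.04 and −2.65 in the skin of Rosco. The part of lymphoid cells in that difference was not tested.

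Named genes showed which of them the other dogs' tumours had above skin. DLA-DRA was higher in the tumours by 3.01 ± 0.35 (SE, limma adjusted p = 0.0169), MX1 by 3.78 ± 0.70 (limma adjusted p = 0.0327) and CD40 by 4.12 ± 0.92 (limma adjusted p = 0.045). MYC was higher by 2.08 ± 0.32 (limma adjusted p = 0.0248). MS4A1 had a difference of 6.53 ± 2.43 that missed the threshold (limma adjusted p = 0.12), as did LTB, with 5.70 ± 1.6 (limma adjusted p = 0.069). By list, 13 of 16 antigen presentation genes and 8 of 8 interferon response genes were higher in the tumours. UBE2S (1.69 ± 0.56, limma adjusted p = 0.097) and BIRC5 (2.08 ± 0.53, limma adjusted p = 0.0581) were not called, and 4 of 9 cell division genes were.

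On the epithelial side KRT15 was lower in the tumours than in skin by 14.37 on the log2 scale (SE 0.93, limma adjusted p = 0.00699), CES1 by 14.05 (SE 0.67, limma adjusted p = 0.00486) and KRT19 by 10.21 (SE 1.19, limma adjusted p = 0.0167). WFDC2 was lower by 4.0 (SE 0.54, limma adjusted p = 0.021). CA6 missed the threshold (−5.04 ± 1.38, limma adjusted p = 0.0664) and KLK1 was near equal (−0.63 ± 0.37, limma adjusted p = 0.266). TFF3, CFTR, LALBA and CCL28 were too dim in tumours and skin to be tested. All 9 epidermis genes were lower in the tumours, 4 of 9 junction and keratin genes and 2 of 10 duct genes. FXYD2, higher by 7.52 in the original samples, was the one higher named gene with a large positive difference here (4.52, limma adjusted p = 0.0672, not called).

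**Figure D5:**
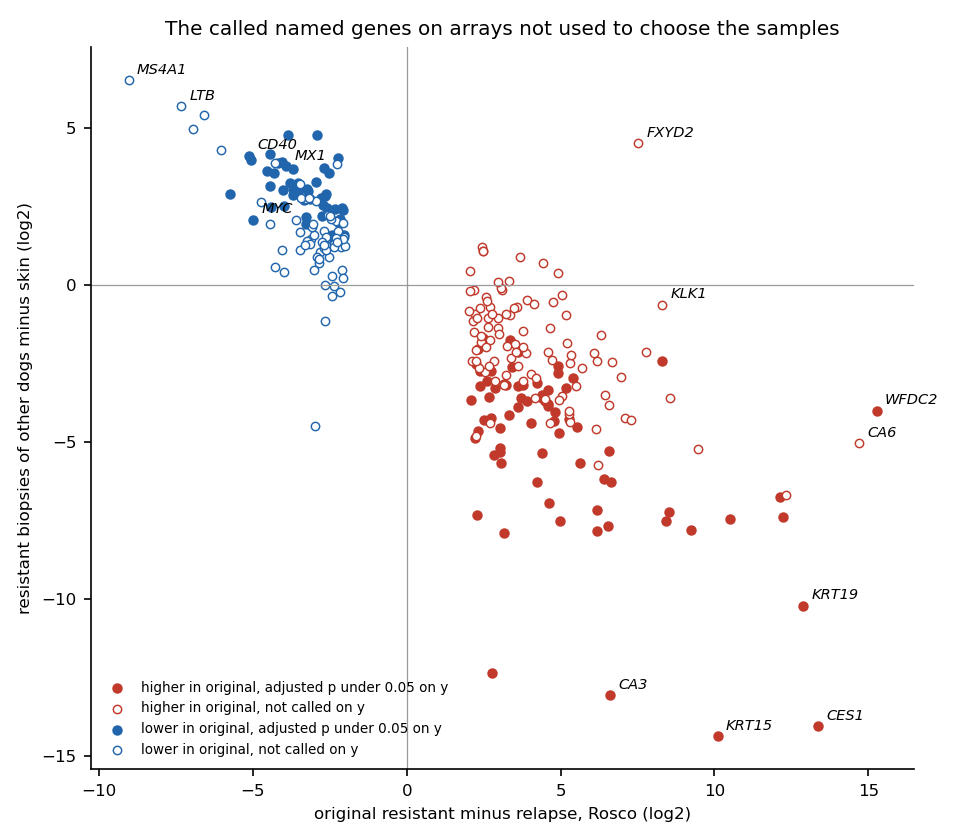
Difference between the resistant biopsies of 3 other dogs and 2 skin samples (y axis, log2) against the difference between the original resistant samples and the relapse aspirates of Rosco (x axis, log2) for the named genes counted on the x axis and tested on the y axis. Filled points passed a limma adjusted p under 0.05 on the y axis; 50 genes lower in the original samples (blue) lie above 0 and 73 genes higher there (red) lie below 0 among the filled points.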

How the data were processed

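RNA of 15 canine samples was labelled with Cy3 and measured on 15 arrays, which lie on 4 slides from 2 scan days. According to the protocols per the labels, RNA passed an integrity check before labelling. Per the file headers and the submitters' processing notes, the authors read spot intensity with the software Agilent Feature Extraction 11.0.1.1, which subtracts background but does not normalise between arrays. The deposited series table holds median intensity minus background, equal to the scanner values in 678300 of 678300 cells within 0.01. Other deposited columns are flags of 0 or 1, such as well above background.

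Processed intensities of non-control spots, without outlying spots, were put on the log2 scale, the 75th percentile of each array was subtracted, and spots of a probe were averaged. RefSeq accessions named 2186 of 43603 probes (5.01%) through the reference gene table. Its assembly differs from that of the array files, so no positions are given. Probes with a missing value on any array (161) were left out. Where a target had more than 1 probe, that with the highest mean stood for it. A fold written "at least" applies where every array of the dimmer group failed the background limit, and compares with the higher of its own signal and the lowest signal well above background there.

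Groups came from the labels. The members and the 37 gene lists were chosen with earlier results of these data known. Named genes were CA6, KLK1, SLPI and MS4A1, the 15 counted genes with the largest difference in each direction, up to 5 genes per list with the largest absolute difference, the 6 genes in each direction that differed most between the original samples, and ABCB1, ABCC1, BCL6, BIRC5, CDC25A, UBE2S and TYMS. Some genes under this rule are not reported here. LRTOMT, ATM, TNC and CTLA4 were added as values near the minimum difference, chosen after their values were seen. The test used limma 3.58.1 in R 4.3.3, two-sided, and was tested on simulated data. Descriptions were computed in Python 3.11.15. Alternatives were quantile and median scaling, normexp with an offset of 50, the deposited table, the median of probes, no filter, other minimum differences, each array left out, slides, and another comparison group. The number of arrays limits the precision.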

Additional observations from a re-analysis of the deposited data

Results flagged for a closer look

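Among the 4 biopsies labelled original drug-resistant, those of MalcolmX, Jake, Dog Y and Rosco, the last lay far from the other 3 for a pair of the chosen markers. For KLK1 the gap to the nearest biopsy was 0.922 of the whole range, and for MS4A1 it was 0.952, above Dixon's 95% critical value for 4 samples. CA6 (0.757) and SLPI (0.697) did not reach it. The values of these markers chose that biopsy, so the gaps are a description and no test. The usual rate of about 1 in 20 groups flagged by chance does not apply to genes chosen in this way.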

How the results depend on the processing

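No paired analysis was possible because the replicate numbers do not pair samples across groups: in the tested comparison only number 1 stands for the same dog, MalcolmX, and a block for the dog would leave no residual degrees of freedom. Normexp background correction gave 1744 higher and 1075 lower targets in the original samples, a minimum difference of 1 gave 5727 and 5910, and a minimum of 3 gave 2417 and 845. Quantile scaling, median centring, the deposited table, the median of probes, no filter, slide 4 alone and the other dogs' biopsies as comparison kept both counts within 1.5 times. Leaving out each of the 5 arrays gave 3569 to 4039 higher and 2128 to 2526 lower targets. No named gene counted in the report was counted on the opposite side under any of these. Median centring moved the median difference from −0.22 to −0.49. Among named genes MYL2 turned to −0.01 with the median of probes, and against the other dogs' biopsies COL1A2 was at −0.02, FBN1 at −0.31, CYP3A12 at 1.25 and CYP3A26 at 0.16; the cause was not tested. For the other dogs' biopsies against skin, 3118 targets were called; normexp gave 141, no filter 1698 and slide 1 alone 1087, and leaving out each array gave 0 to 3703. Without a skin sample the lone skin is assumed to vary like the biopsies. Slide 2 alone, with 1 array per group, could not be tested. Of list medians under other settings 345 stayed within the spread of arrays and 87 moved, and of named genes 1422 stayed and 553 moved.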
